A study of Mus musculus with 6 samples.

Results

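Seven-transmembrane receptors that guide neutrophils towards chemoattractants were compared between miR-223 null and wild-type cells. The group holds 7 genes, Cxcr2, Cxcr4, Fpr1, Fpr2, C5ar1, Ltb4r1 and Ccr1, read by 9 probe sets chosen by identifier from the 45101 of the array table. Gene names follow the list by which the probe sets were chosen, since no annotation of the array was used here. All 9 probe sets passed the filter on low signal and were tested together with the other probe sets kept, 27022 in all.

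The cells were mouse neutrophils matured in culture from bone marrow progenitors, 3 arrays for marrow lacking miR-223 and 3 for wild-type marrow. Cells of either genotype were held for 6 days in SILAC-IMDM, an isotope-labelling medium, with G-CSF and SCF and then for 42 hours in the absence of SCF, and live cells were recovered by MACS, a magnetic bead method. The wild-type and null cells thus shared the same cytokines, and the labels name no chemoattractant added to either. The labels used here name no strain, age or sex and do not describe how the null allele was made. The labels do not say whether replicates were separate mice or cultures, so p-values measure only the spread between these arrays, which may be technical.

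As background, chemoattractant receptors couple to Gi proteins, whose beta-gamma subunits activate phosphoinositide 3-kinase gamma and phospholipase C and so polarise the cell. Neutrophils follow intermediate attractants such as chemokines and leukotriene B4 towards a vessel or tissue, and end-target attractants, formyl peptides and complement fragment C5a, to bacteria or damaged cells. CXCR4 holds maturing neutrophils in the marrow through CXCL12, and CXCR2 favours their release.

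The microRNA that separates the genotypes is shown first, with its seed, bases that pair with target mRNAs. Sequences are from RefSeq on GRCm38.p6, 5′ to 3′, with bases 2 to 8, the seed, in capitals. The 3p arm lies at chrX:96242884-96242905 and the 5p arm at chrX:96242842-96242864, both on the + strand.
mmu-miR-223-3p: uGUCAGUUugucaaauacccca
mmu-miR-223-5p: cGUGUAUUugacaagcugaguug
Of the 1679 mature mouse microRNAs in the table, 0 others carried the seed of the 3p arm and 0 others that of the 5p arm. An mRNA site for the 3p seed would read AACUGAC. Whether the receptor mRNAs hold such a site was not analysed here, and the level of miR-223 itself was not analysed here either.

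The signal for C5ar1, the receptor for C5a, was lower in miR-223 null cells at both of its probe sets and within every replicate number. The differences for the remaining 6 genes were smaller. Fpr1 signal was lower and Ccr1 signal higher in null cells within every replicate number, each by less than 0.3 log2 units in any pair. Cxcr2, Cxcr4, Fpr2 and Ltb4r1 passed neither with nor without a replicate block. Without a replicate block, 0 of the 9 lay under 0.05 after Benjamini-Hochberg adjustment of limma's p over every probe set tested, against 0.189% of all 27022. Before adjustment, 3 of the 9 lay under 0.05 in limma, against 10.7% of all tested.

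With the replicate number as a block, which compares null and wild-type arrays of the same number, 4 of the 9 passed, 3 lower and 1 higher in null cells. They were the 2 probe sets of C5ar1, that of Fpr1 and 1 of the 2 of Ccr1. Over all probe sets tested, 10% passed with the block, 5.05% lower and 4.96% higher. No receptor probe set read below 8.86 log2 units on any array, while probe sets were kept down to a mean of 4.08. Values over all probe sets tested, here and elsewhere, were not matched to the receptors for signal. With the filter at the 60th percentile fewer probe sets were tested, yet 3052 passed with the block against 2703. The share over all tested was thus above 10% there, and the same 4 receptor probe sets passed. The median difference was -0.0034 log2 units over the 9 probe sets and -0.011 over all tested, and the median size was 0.19 against 0.11.

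**Figure D1:**
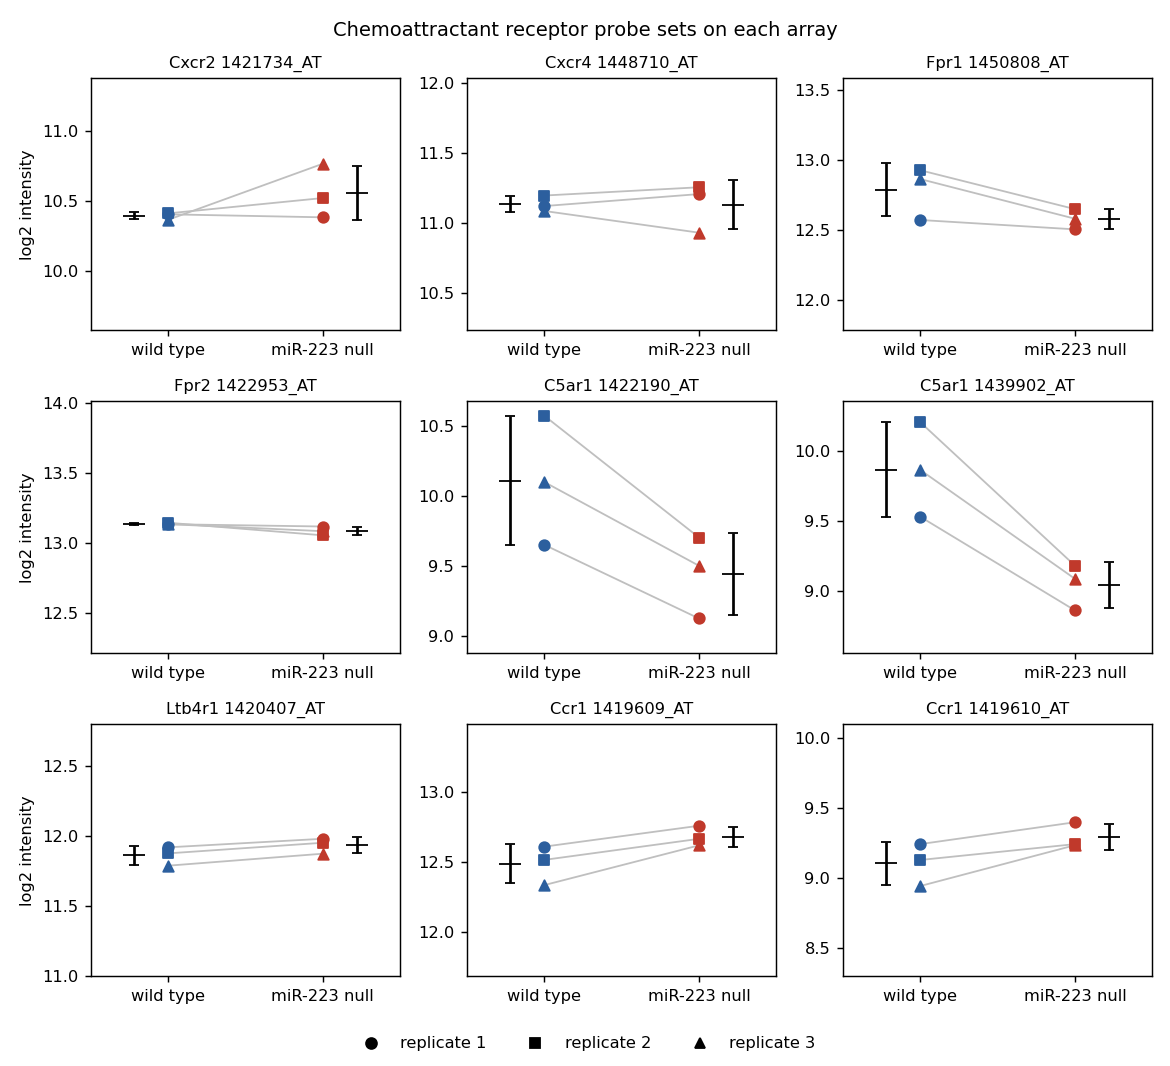
Log2 intensity (vertical axis, the same span of 1.8 units in each panel) of the 9 receptor probe sets on the 3 wild-type (blue) and 3 miR-223 null (red) arrays. Grey lines join arrays of the same replicate number, and black bars give the mean ± SD of each group. The lines for C5ar1 slope down steeply, by 0.53 to 1.03 log2 units, and those for Fpr2 and Ltb4r1 are nearly flat.

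For C5ar1, probe set 1422190_AT read 9.13, 9.71 and 9.50 log2 units on null arrays 1, 2 and 3 and 9.65, 10.58 and 10.10 on wild-type arrays 1, 2 and 3. The groups overlapped there by a small margin, since null 2 lay just above wild-type 1. Probe set 1439902_AT read 8.86, 9.18 and 9.08 on the null arrays and 9.53, 10.20 and 9.86 on the wild-type arrays. All 3 null arrays lay below all 3 wild-type arrays. Within each genotype both probe sets placed the arrays in the same order, with replicate 1 lowest and replicate 2 highest.

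At 1422190_AT the null arrays averaged 9.45 ± 0.29 (SD, n = 3) and the wild-type arrays 10.11 ± 0.46 (SD, n = 3). The difference, null minus wild type, was -0.67 log2 units, so null signal was 63.1% of wild type. Without the block its SE was 0.24 and the limma adjusted p was 0.386, and with the block the SE was 0.072 and the limma adjusted p 0.00350. At 1439902_AT the means were 9.04 ± 0.16 (SD, n = 3) and 9.86 ± 0.34 (SD, n = 3). This was a difference of -0.82 log2 units, or 56.5% of wild type, with an SE of 0.18 and a limma adjusted p of 0.163 without the block and an SE of 0.075 and a limma adjusted p of 0.00190 with it.

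The difference for C5ar1 was present in each replicate pair. In pairs 1, 2 and 3 the null signal was 69.4%, 54.7% and 66.0% of wild type at 1422190_AT and 62.9%, 49.1% and 58.3% at 1439902_AT. Replicate 2 thus gave the largest difference and replicate 1 the smallest at either probe set. Among all 27022 probe sets, 338 differed by more than 1422190_AT in size and 177 by more than 1439902_AT, in either direction. The 2 probe sets share their mRNA and are not replicates of each other.

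Averaged over both C5ar1 probe sets on each array, null arrays stood at 9.24 ± 0.23 (SD, n = 3) and wild-type arrays at 9.99 ± 0.40 (SD, n = 3), a null signal of 59.7% of wild type. The exact two-sided permutation p was 0.1 over arrays and 0.25 over pairs, which are the smallest that 3 against 3 and 3 pairs can give. The gap between the 2 probe sets, 1422190_AT minus 1439902_AT, was larger in null arrays by 0.14, 0.16 and 0.18 log2 units in the 3 pairs. Averaged over arrays this was a shift of 0.16 (two-sided exact permutation, p = 0.2 over arrays and 0.25 over pairs).

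With all 6 arrays, C5ar1 passed only in fits that took the replicate number into account. With replicate 2 left out of the blocked fit, 2 arrays per genotype remained, a part of the same data. Both probe sets passed in it, at differences of -0.56 and -0.72 log2 units (limma adjusted p = 0.0169 and 0.00847). Without an intensity trend in the variance, the blocked limma adjusted p was 0.0570 for 1422190_AT and 0.0436 for 1439902_AT. In unblocked fits that left out 1 array, neither probe set passed, and the difference at 1422190_AT ranged from -0.43 without wild-type 2 to -0.89 without wild-type 1.

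**Figure D2:**
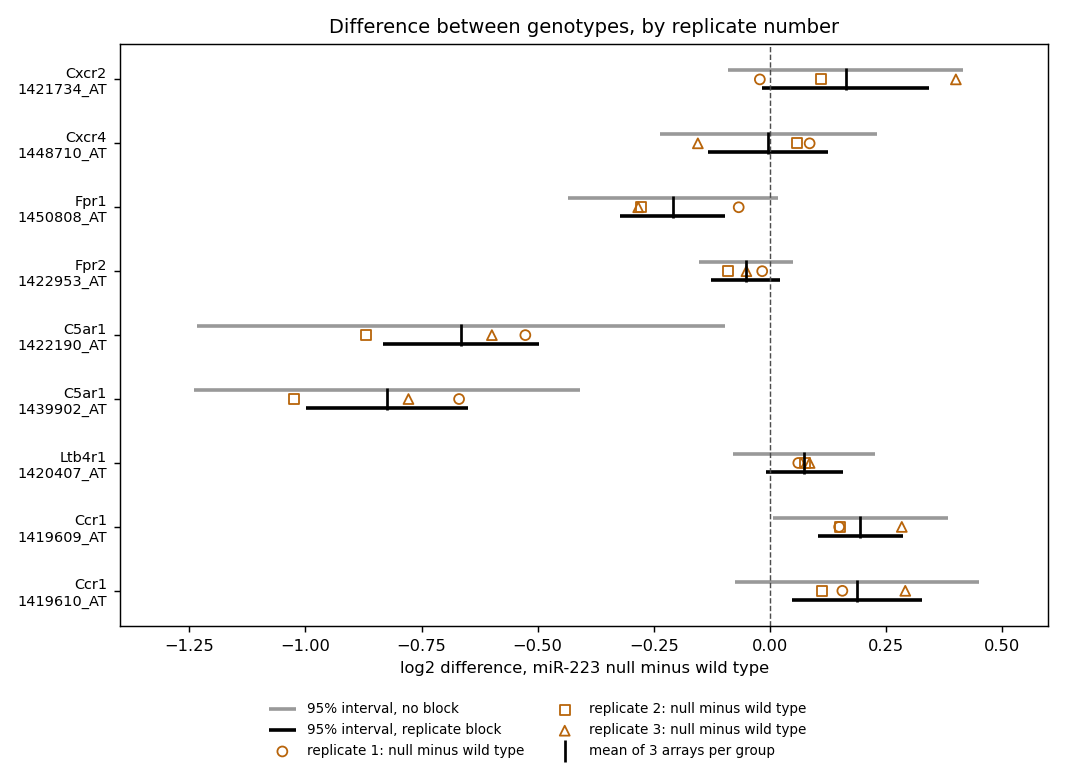
Log2 difference, miR-223 null minus wild type (horizontal axis), for each receptor probe set. Open symbols give the difference within replicate numbers 1, 2 and 3, the vertical tick their mean, and the bars the 95% limma interval without (grey) and with (black) the replicate block. At C5ar1 all symbols lie between -1.03 and -0.53. The intervals are not adjusted for the number of probe sets tested. With the block they leave out 0 at Fpr1 and at both probe sets of C5ar1 and of Ccr1. Without it they leave out 0 at both probe sets of C5ar1 and at 1419609_AT of Ccr1.

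The formyl peptide receptors sense N-formylated peptides released by bacteria and mitochondria. Fpr1 is the classical receptor for them, and Fpr2 has a broad set of peptide and lipid ligands. Fpr1 and Fpr2 are neighbours on chromosome 17. Probe set 1450808_AT for Fpr1 read 12.50, 12.65 and 12.58 log2 units on null arrays 1, 2 and 3 and 12.57, 12.92 and 12.86 on the wild-type arrays. Wild-type 1 lay within the null range, so the groups overlapped, and the other wild-type arrays lay above it.

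Fpr1 averaged 12.57 ± 0.072 (SD, n = 3) over the null arrays and 12.78 ± 0.19 (SD, n = 3) over the wild-type arrays. Null signal was 86.5% of wild type, a log2 difference of -0.21 (limma adjusted p = 0.501 without and 0.0372 with the block). The pairs differed by -0.067, -0.28 and -0.28 log2 units, so replicate 1 contributed least. The blocked call was lost without replicate 2 (difference -0.18, limma adjusted p = 0.204), without replicate 3 (difference -0.17, limma adjusted p = 0.0862) and without an intensity trend (limma adjusted p = 0.194). The call for Fpr1 was thus lost in these fits, while the difference kept its sign.

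Fpr2, at probe set 1422953_AT, read 13.12, 13.05 and 13.08 log2 units on the null arrays and 13.13, 13.14 and 13.13 on the wild-type arrays. The null arrays lay below the wild-type arrays without overlap, but the whole span over 6 arrays was 0.090 log2 units. The difference was -0.052 (SE 0.043, limma adjusted p = 0.751; with the block SE 0.032, limma adjusted p = 0.352). The 95% interval of the blocked fit ran from -0.13 to 0.021 log2 units. The highest value of an array was 14.98 or 14.99, and whether signals this bright are compressed was not tested.

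Ccr1, a receptor for CCL3 and CCL5 among other CC chemokines, had higher signal in null cells at both probe sets. Probe set 1419609_AT read 12.76, 12.66 and 12.62 log2 units on null arrays 1, 2 and 3 and 12.61, 12.51 and 12.33 on wild-type arrays. The groups did not overlap, though null 3 exceeded wild-type 1 by less than 0.01. Probe set 1419610_AT read 9.40, 9.25 and 9.24 on the null and 9.25, 9.13 and 8.95 on the wild-type arrays. Here wild-type 1 lay among the null arrays.

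The difference of Ccr1 was 0.19 log2 units at either probe set. Null signal was 1.14-fold that of wild type at 1419609_AT (SE 0.081, limma adjusted p = 0.456; with the block SE 0.039, limma adjusted p = 0.0250). At 1419610_AT it was also 1.14-fold (SE 0.11, limma adjusted p = 0.626; with the block SE 0.060, limma adjusted p = 0.0949), so that only 1419609_AT passed with the block. Averaged over both Ccr1 probe sets on each array, null signal was 114% of wild type. The exact two-sided permutation p was 0.1 over arrays and 0.25 over pairs, the smallest possible, as for C5ar1. The groups were parted only narrowly for Ccr1, with null 3 at 10.9265 and wild-type 1 at 10.9257. For the C5ar1 average the nearest arrays were null 2 at 9.44 and wild-type 1 at 9.59. The gap between the 2 Ccr1 probe sets shifted by 0.0076 log2 units between genotypes (exact two-sided permutation p = 0.9). Within pairs 1, 2 and 3 the difference was 0.15, 0.15 and 0.28 at 1419609_AT and 0.16, 0.11 and 0.29 at 1419610_AT. The rise at 1419609_AT did not pass in the blocked fit without replicate 2 (difference 0.22, limma adjusted p = 0.0972), in the blocked fit without an intensity trend (limma adjusted p = 0.182) or when both replicate 1 arrays were left out without a block (difference 0.22, limma adjusted p = 0.112).

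Ltb4r1 encodes BLT1, the high-affinity receptor for leukotriene B4, a lipid that relays chemotactic signals between neutrophils. Its probe set 1420407_AT read 11.98, 11.95 and 11.87 log2 units on null arrays 1, 2 and 3 and 11.92, 11.87 and 11.79 on the wild-type arrays. The groups overlapped, yet the pairs gave nearly the same difference, 0.061, 0.076 and 0.086. The mean difference was 0.074 (limma adjusted p = 0.767; with the block 0.233), with a 95% interval of -0.0080 to 0.16 log2 units in the blocked fit. The upper end of that interval corresponds to 1.11-fold.

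Cxcr2, the receptor for CXCL1, CXCL2 and related chemokines, read 10.38, 10.52 and 10.76 log2 units at probe set 1421734_AT on null arrays 1, 2 and 3. On wild-type arrays it read 10.40, 10.41 and 10.36. The wild-type arrays were tightly grouped, while the null arrays spread from just below wild-type 1 to well above all wild-type arrays. Null arrays averaged 10.56 ± 0.19 (SD, n = 3) and wild-type arrays 10.39 ± 0.025 (SD, n = 3). The difference of 0.16 log2 units did not pass (limma adjusted p = 0.670; with the block 0.234).

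The difference for Cxcr2 rested largely on null 3. The pairs gave -0.021, 0.11 and 0.40 log2 units, and without null 3 the difference was 0.058. The 95% interval ran from -0.091 to 0.42 log2 units without and from -0.018 to 0.34 with the block. The upper end of the unblocked interval corresponds to 1.34-fold, and a signal equal to wild type lies inside both intervals.

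Cxcr4, the CXCL12 receptor, read 11.21, 11.26 and 10.93 log2 units at probe set 1448710_AT on null arrays 1, 2 and 3 and 11.12, 11.20 and 11.09 on the wild-type arrays. Null 1 and null 2 were the highest arrays and null 3 the lowest, so the null arrays enclosed the wild-type arrays. The difference was -0.0034 log2 units (SE 0.10, limma adjusted p = 0.995), with a 95% interval of -0.24 to 0.23, and of -0.13 to 0.13 with the block. The direction of so small a difference turned to 0.097 without null 3, to 0.027 without wild-type 2 and to 0.072 in the blocked fit without replicate 3.

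Null 3 combined the highest Cxcr2 with the lowest Cxcr4 signal. The log2 difference Cxcr2 minus Cxcr4 was -0.83, -0.74 and -0.17 on null arrays 1, 2 and 3 and -0.72, -0.79 and -0.73 on the wild-type arrays. Since probe sets differ in brightness for reasons other than mRNA level, only its shift between genotypes can be read. That shift was 0.17 (exact two-sided permutation p = 0.9 over arrays and 0.75 over pairs), and it was -0.038 without null 3. The shift was smaller than the SD of the null arrays, 0.36. The test cannot give a p below 0.1 over arrays or 0.25 over pairs, so it could not detect a shift at 0.05.

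**Figure D3:**
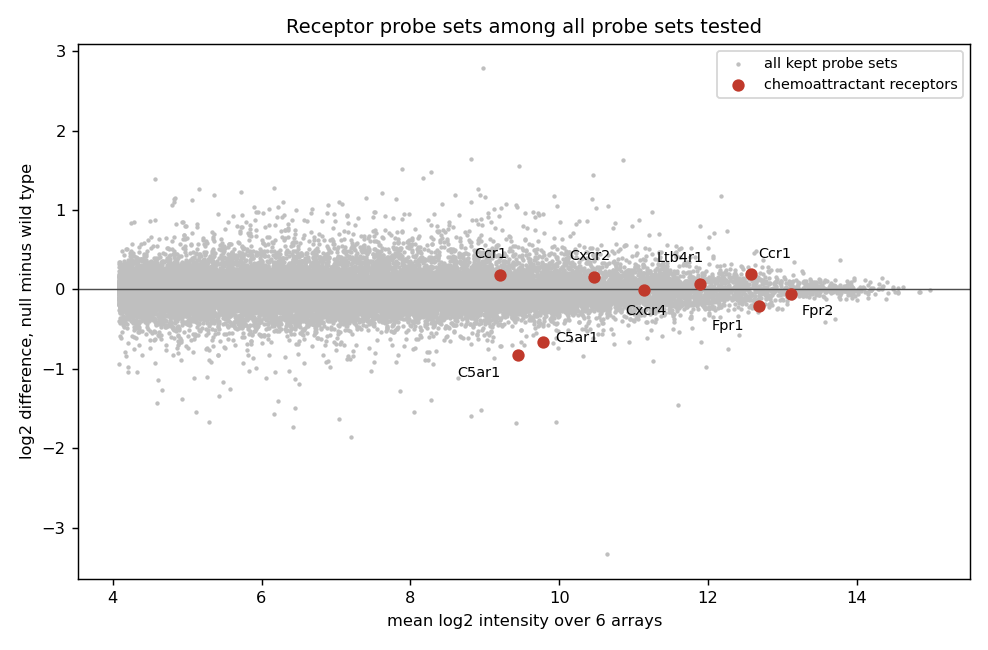
Log2 difference, null minus wild type (vertical axis), against mean log2 intensity over 6 arrays (horizontal axis) for the 27022 probe sets tested (grey) and the 9 receptor probe sets (red). The C5ar1 points, at -0.67 and -0.82, lie at the lower edge of the grey cloud, and the other receptors lie between -0.21 and 0.19.

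Direction within pairs and separation of the groups were also counted. The difference had one sign in 3 of 3 pairs at 7 of the 9 probe sets, 3 higher and 4 lower in null cells, where 46.6% of all probe sets tested did so. The exceptions were Cxcr2 and Cxcr4. Null and wild-type arrays did not overlap at 3 of the 9, 1439902_AT for C5ar1, 1422953_AT for Fpr2 and 1419609_AT for Ccr1, where 16.8% of all probe sets tested did not.

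The variation of the receptors was split by genotype and replicate number. The share that followed the replicate number ran from 11.5% (Fpr2) to 74.2% (Cxcr4), with a median of 44.8% over the 9 probe sets and 53.3% over all tested; it takes 2 of the 5 degrees of freedom. The median share of genotype was 45.5% over the 9 and 16.4% over all tested. The sum of squares over 6 arrays split into 52.6% for genotype, 44.8% for replicate number and 2.61% for the remainder at 1422190_AT of C5ar1, and into 78.3%, 19.1% and 2.56% at 1439902_AT. For Ltb4r1 the replicate number took 63.8% and genotype 35.5%. For Cxcr4 genotype took 0.0264%. Cxcr2 had the largest remainder of the 9, at 40.2%, and its replicate number took 25.6%. With 3 arrays a group these shares describe the arrays and carry no test.

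**Figure D4:**
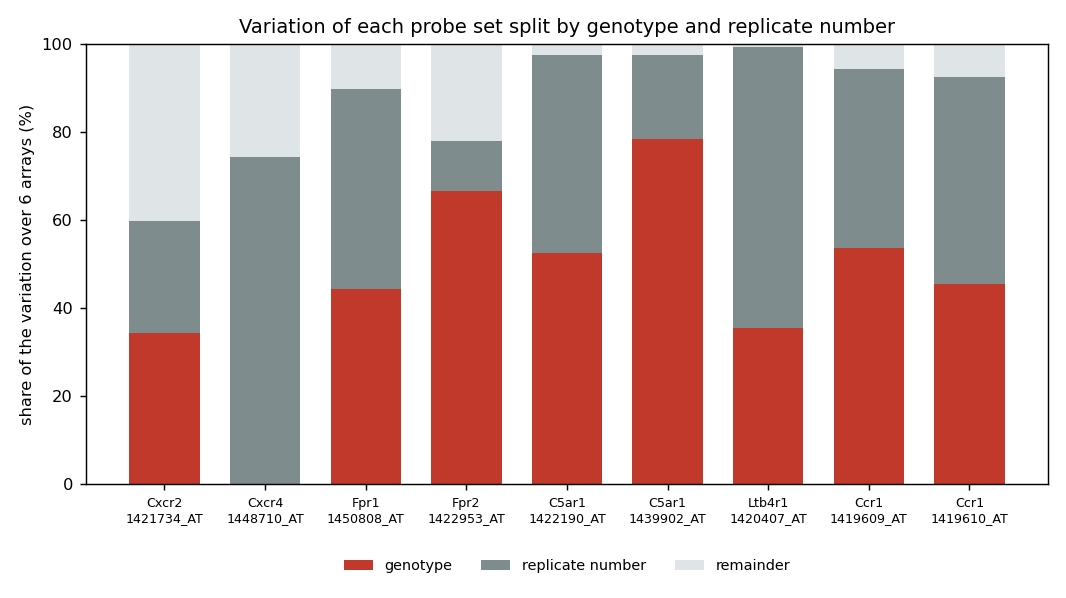
Share of the variation over 6 arrays (vertical axis, percent of the sum of squares) that followed genotype (red), replicate number (dark grey) or neither (light grey) for each receptor probe set. Genotype took the largest share at 1439902_AT of C5ar1, 78.3%, and almost none at Cxcr4.

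At several receptors replicate 1 departed from replicates 2 and 3 in either genotype. For C5ar1 at 1422190_AT, the value on replicate 1 minus the mean of replicates 2 and 3 was -0.48 log2 units among null and -0.69 among wild-type arrays. At 1439902_AT it was -0.27 and -0.50, and at Fpr1 -0.11 and -0.32. For Ccr1 it was 0.12 and 0.18 at 1419609_AT and 0.16 and 0.21 at 1419610_AT. For Ltb4r1 it was 0.068 and 0.087. At these probe sets the sign was that of the difference between null and wild type. At Cxcr2, Cxcr4 and Fpr2 the departure of replicate 1 had opposite signs in null and wild-type arrays.

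Technical controls also set the replicate 1 arrays apart. Spiked poly-A controls averaged 8.92 and 8.77 log2 units on the replicate 1 arrays and 8.16 to 8.58 on the other 4, and the actin 3′ minus 5′ difference was 0.28 and 0.26 against 0.15 to 0.21. The actin difference was also higher in null than in wild-type arrays in 3 of 3 pairs, by 0.022, 0.030 and 0.022. The poly-A controls were higher in null arrays in pairs 1 and 3 and lower in pair 2. Their widest gap was within pair 3, at 8.58 on null 3 against 8.16 on wild-type 3. The part of these technical controls in the receptor values was not tested. C5ar1 was lower in null cells within replicate 1 and without it. A fit chosen after seeing the data left out both replicate 1 arrays, with 2 arrays per genotype and no block. There the C5ar1 differences were -0.73 and -0.90 log2 units (limma adjusted p = 0.0355 and 0.00989). Fpr1 also passed in that fit, at -0.28 (limma adjusted p = 0.0240). Over all 27022 probe sets tested, 1072 passed in it. Markers of the cell types that such a culture could hold were not analysed here, and the labels say of the MACS step only that it isolated live neutrophils. In bulk RNA of these cells, fewer cells that express a receptor and less receptor mRNA per cell cannot be told apart.

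The upstream sequences of C5ar1 and Ccr1 are shown because each gene has 2 probe sets whose differences share a sign, lower in null cells for C5ar1 and higher for Ccr1. Each line holds the 250 bases before the RefSeq start on GRCm38.p6, 5′ to 3′ along the gene. C5ar1 lies on the - strand at chr7:16259339-16259588 and Ccr1 on the - strand at chr9:123968693-123968942. Capitals mark matches, on either strand, to GAGGAA, the core bound by PU.1, and to TTGNNNAA, a loose form of the site of C/EBP proteins, both factors of the granulocyte lineage.
C5ar1: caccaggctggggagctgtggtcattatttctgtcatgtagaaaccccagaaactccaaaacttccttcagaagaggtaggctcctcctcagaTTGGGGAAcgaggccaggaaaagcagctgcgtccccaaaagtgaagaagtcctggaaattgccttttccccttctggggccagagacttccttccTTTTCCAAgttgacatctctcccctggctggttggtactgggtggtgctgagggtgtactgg
Ccr1: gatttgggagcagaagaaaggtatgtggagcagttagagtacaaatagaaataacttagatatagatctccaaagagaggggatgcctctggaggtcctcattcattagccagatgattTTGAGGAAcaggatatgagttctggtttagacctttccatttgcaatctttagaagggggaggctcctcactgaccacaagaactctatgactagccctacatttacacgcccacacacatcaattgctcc
The C5ar1 window held 2 matches to TTGNNNAA, starting 157 and 62 bases before the start, and 0 to GAGGAA. The Ccr1 window held 1 match to each, which overlap within the same capitals. Of the 32851 promoter windows of this length, 33.3% held TTGNNNAA and 23.3% GAGGAA. TTGNNNAA also matched in the windows of Cxcr2, Cxcr4, Fpr1 and Fpr2, but not in that of Ltb4r1. GAGGAA also matched in those of Cxcr2, Fpr2 and Ltb4r1, but not in those of Cxcr4 and Fpr1. Neither match was thus particular to C5ar1 and Ccr1. The AP-1 motif, TGANTCA, was found in 0 of the 7 receptor windows and in 6.75% of all windows. These are matches of letters, and binding was not measured.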

How the data were processed

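Affymetrix mouse arrays were hybridised with biotin-labelled total RNA, 3 per genotype, per the labels. The deposited table holds log2 intensity values; the submitters' processing notes name GCOS, and no source used here gives the background correction or normalization. Array medians lay between 4.71 and 4.73, so values were used as deposited, and each difference is relative to the rest of the array. The number of arrays limits the precision.

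The 64 control probe sets were left out, and those whose mean over 6 arrays reached the 40th percentile (4.08) were kept. The test was that of limma 3.58.1 (R 4.3.3), two-sided, by lmFit and eBayes with an intensity trend, adjusted over all probe sets kept. Code was tested on simulated data. Named are all 9 members. The members and lists were chosen with earlier results of these data known. The 4 lists of related genes, the cell type markers and the search for genes of similar pattern need gene names for other probe sets and were not run. All 7 symbols matched RefSeq.

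The replicate numbers come from the titles. The numbers were taken as pairs. Deviations from group means correlated at r = 0.70, 0.30 and 0.48 between same-numbered arrays (over probe sets, which are not independent). Such deviations cancel out within a genotype. With replicate 1 set apart in either genotype, positive values among replicates 2 and 3 are thus partly built in. Null 3 and wild-type 2 also reached 0.41, so the pairing of replicates 2 and 3 is not settled. Other filters, scalings and variance models and fits without an array or pair were tried, and the closing section gives their effect.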

Additional observations from a re-analysis of the deposited data

How the results depend on the processing

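Of the 9 receptor probe sets, 0 passed without a block as deposited (3 at an unadjusted limma p under 0.05, against 2881 of 27022 over all). The count was 0 with no filter, the 60th percentile filter, quantile normalization, median centring, no intensity trend and each array left out. It was 4 with the replicate block, 2 to 4 when a pair was left out of it, and 1 with the block and no intensity trend. Settings chosen after seeing the data gave 3 without both replicate 1 arrays and no block, and 4 with a block of replicate 1 against the rest and with the replicate block after quantile normalization, after centring, with no filter and with the 60th percentile filter.

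Over all probe sets the unblocked count was 51, and 0 to 58 with an array left out; at 0 (without null 2 or wild-type 2), limma gave 2064 and 1753 at an unadjusted p under 0.05. The replicate block gave 2703, 2045, 606 and 2319 without pair 1, 2 or 3, and 191 without the trend. The added settings gave 1072, 2417, 2566, 2546, 2455 and 3052, in the order above. Of these, 2455 (no filter) is out of 45037 probe sets and 3052 (60th percentile filter) out of fewer than 27022. The others are out of 27022, so these counts are not shares of one total. The cause of the changes was not tested.

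The block, filters and variance model cannot move a difference. In the 11 alternatives that can (scalings, arrays or pairs left out), 8 of the 9 probe sets kept their sign. Cxcr4 (-0.0034) ran from -0.066 to 0.097 with an array left out, turning to 0.097 without null 3, 0.027 without wild-type 2 and 0.072 in the blocked fit without replicate 3. The Cxcr2 minus Cxcr4 shift (0.17) was -0.038 to 0.29 with an array left out, and 0.30, 0.22 and -0.028 without pair 1, 2 or 3. The filter and scaling alternatives changed no member's call in either fit.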
